A study of Mus musculus with 10 samples.

Results

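The 10 genes described here are immediate early genes outside the Fos and Jun families: the zinc finger transcription factors Egr1, Egr2 and Egr3, the orphan nuclear receptors Nr4a1 and Nr4a2, the nuclear or signalling proteins Ier2, Ier3 and Ier5, the mRNA decay factor Zfp36 and the antiproliferative factor Btg2. They were picked by name, with their levels in these libraries already known, from 32903 genes in the table, and all 10 were among the 14597 genes tested. Messenger RNA was sequenced from preadipocytes, which can become fat cells, taken from the inguinal fat depot (labelled iSAT) of wild-type (WT) male C57 BL6 mice. The library kit was directional. There were 5 libraries with DMSO, the solvent, alone and 5 with bisphenol S (BPS), a structural analogue of bisphenol A, at 2.5 µM in DMSO. The duration of the exposure and whether replicates came from separate animals or dishes were not given, so the spread between libraries may be technical. Because the difference between BPS and DMSO was known when the genes were picked, it is given for them as a description, with a standard error and no p-value of their own. Where they are counted as called, this says only on which side of the threshold of the fit over all genes they fell.

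Immediate early genes are transcribed within minutes of a stimulus such as serum or a growth factor, without new protein synthesis. ERK signalling acts on them largely through serum response factor (SRF) and its ETS partners, and cyclic AMP acts through CREB. Their products include transcription factors that switch on later genes and proteins, such as ZFP36, that end the response by shortening mRNA lifetimes. In preadipocytes EGR2 is known as an early promoter of fat cell differentiation, while EGR1 is known to restrain it.

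Of the 10 genes, 7 had an upstream window in the RefSeq promoter table of build GRCm38.p6. Egr1, Egr3 and Ier2 had none there. Where a gene had several windows (Egr2), the one nearest the start of its main transcript was used. The windows ran from 250 bases before to 50 bases after the start of transcription given there, and 6 motifs were searched on both strands. For Zfp36 that start lay 1025 bases from the start of the GENCODE M21 transcript paired with its main transcript. The place of its matches relative to the start is therefore less certain. The 200 bases before the start are shown for the 4 genes with a match to a searched binding sequence of SRF, ETS, EGR or CREB factors. Capitals mark the matches, and each line is read 5′ to 3′ on the gene's own strand.

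Egr2, chr10:67537669-67537868, plus strand: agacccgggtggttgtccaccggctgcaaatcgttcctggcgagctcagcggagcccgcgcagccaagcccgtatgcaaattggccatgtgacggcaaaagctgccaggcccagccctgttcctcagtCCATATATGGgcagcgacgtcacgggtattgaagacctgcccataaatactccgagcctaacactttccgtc
Zfp36, chr7:28379229-28379428, minus strand: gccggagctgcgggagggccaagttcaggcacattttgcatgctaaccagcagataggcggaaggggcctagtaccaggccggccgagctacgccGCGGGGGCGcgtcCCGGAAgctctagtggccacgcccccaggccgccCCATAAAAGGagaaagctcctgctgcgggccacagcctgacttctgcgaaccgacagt
Nr4a1, chr15:101266646-101266845, plus strand: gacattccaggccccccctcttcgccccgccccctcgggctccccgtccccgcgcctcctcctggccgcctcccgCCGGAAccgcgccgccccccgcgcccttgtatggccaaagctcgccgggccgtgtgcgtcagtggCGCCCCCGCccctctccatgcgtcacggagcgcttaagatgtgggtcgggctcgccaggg
Btg2, chr1:134079156-134079355, minus strand: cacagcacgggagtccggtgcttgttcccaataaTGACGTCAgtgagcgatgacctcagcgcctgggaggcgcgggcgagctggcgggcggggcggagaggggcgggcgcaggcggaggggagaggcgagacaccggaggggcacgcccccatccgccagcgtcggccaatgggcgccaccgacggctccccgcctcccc

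The CArG box, the SRF binding sequence, was found in Egr2 (CCATATATGG, 72 bases before the start) and in Zfp36 (CCATAAAAGG, 58 bases before it). It occurred in 1.63% of all 32851 windows of this length. The ETS core CCGGAA was found in Zfp36 and Nr4a1, against 14.9% of all windows. An EGR sequence, GCGTGGGCG or GCGGGGGCG, was found in Zfp36 and Nr4a1, against 3.47%. The full CREB sequence TGACGTCA was found in Btg2, against 1.79%. Shorter parts of it, such as TGACG, were not counted. The letters TGACG, or CGTCA for the opposite strand, also stand in the windows of Egr2, Nr4a1 and Nr4a2. The search therefore does not show that Btg2 alone has a CREB-type sequence. The NR4A sequence AAAGGTCA was found in 0 of the 7 windows (1.51% of all), and the TATA sequence TATAAA in that of Nr4a2 alone (13.6% of all). The Nr4a2 match lay on the opposite strand, 164 bases before the start. Only exact matches were counted, so TATA-like sequences that differ by a letter were missed. These are letter matches and no measurement of binding.

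Total estimated counts per library lay between 37920689 and 42717227. Each of the 10 genes had between 387 and 3592 counts per library. Levels are CPM, a gene's count relative to all counts assigned to genes in that library, after TMM scaling. All 8 preadipocyte markers were measured, among them Pdgfra, whose mean was 903 ± 14.3 CPM with DMSO and 863 ± 22.8 CPM with BPS (SD over 5 libraries). In the edgeR test 2 of the 8 rose, Cd34 (45.2 ± 1.56 and 54.8 ± 1.89 CPM) and Thy1 (848 ± 7.32 and 968 ± 40.1 CPM), and 0 fell. Their summed level was 2662 to 2717 CPM in DMSO and 2726 to 2806 CPM in BPS, so the sums did not overlap. Fat cell markers summed to at most 0.228 CPM, and Lep, the macrophage gene Csf1r and the mesothelial genes Msln and Upk3b were at 0 in every library. Macrophage (9.1 to 14.7 and 9.97 to 17.3 CPM) and endothelial (17.02 to 22.4 and 16.3 to 22.02 CPM) sums overlapped between DMSO and BPS, as did the mesothelial sums (9.05 to 11.02 and 10.98 to 12.9 CPM), of which Krt19 rose. Mural cell markers moved with the groups: their sum was 1058 to 1133 CPM in DMSO and 1363 to 1470 CPM in BPS, carried by Acta2, smooth muscle actin, and 3 of 5 of them rose in the edgeR test (Acta2, Mcam and Cspg4, with 0 falling). The part of the preadipocyte and mural markers in the results below was not tested, and in bulk RNA a change in the share of cells and a change per cell cannot be told apart. The library numbers in the labels place all DMSO libraries before all BPS libraries, so a batch that followed this order cannot be told apart from the treatment.

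Among the EGR genes Egr1 carried by far the widest difference. EGR1 binds GC-rich sequences in the promoters of growth and matrix genes. Its level was 29.3, 29.96, 24.2, 25.9 and 32.6 CPM in DMSO replicates 1 to 5 and 61.7, 68.3, 49.2, 58.7 and 61.2 CPM in BPS replicates 1 to 5. The groups did not overlap: the lowest BPS library stood 16.6 CPM above the highest DMSO library. The fitted difference (BPS minus DMSO) was 1.08 on the log2 scale (SE 0.09), a 2.11-fold higher level.

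Egr2, which also drives myelination and hindbrain patterning, had 79.2, 66.7, 60.8, 71.3 and 70.5 CPM in DMSO and 90.03, 84.5, 75.6, 87.5 and 74.7 CPM in BPS. The groups overlapped through DMSO replicate 1, which stood above BPS replicates 3 and 5, and the log2 difference was 0.24 (SE 0.07). Egr3, whose product binds the same sequence as EGR1 and EGR2, had 13.1, 14.04, 14.3, 13.8 and 14.8 CPM in DMSO and 15.9, 16.2, 13.3, 16.3 and 14.02 CPM in BPS. Here BPS replicates 3 and 5 lay within the DMSO range, 3 BPS libraries lay above it, and the log2 difference was 0.11 (SE 0.06). Egr1, Egr2 and Egr3 were thus in the same direction, with log2 differences that ran from 0.11 to 1.08.

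**Figure D1:**
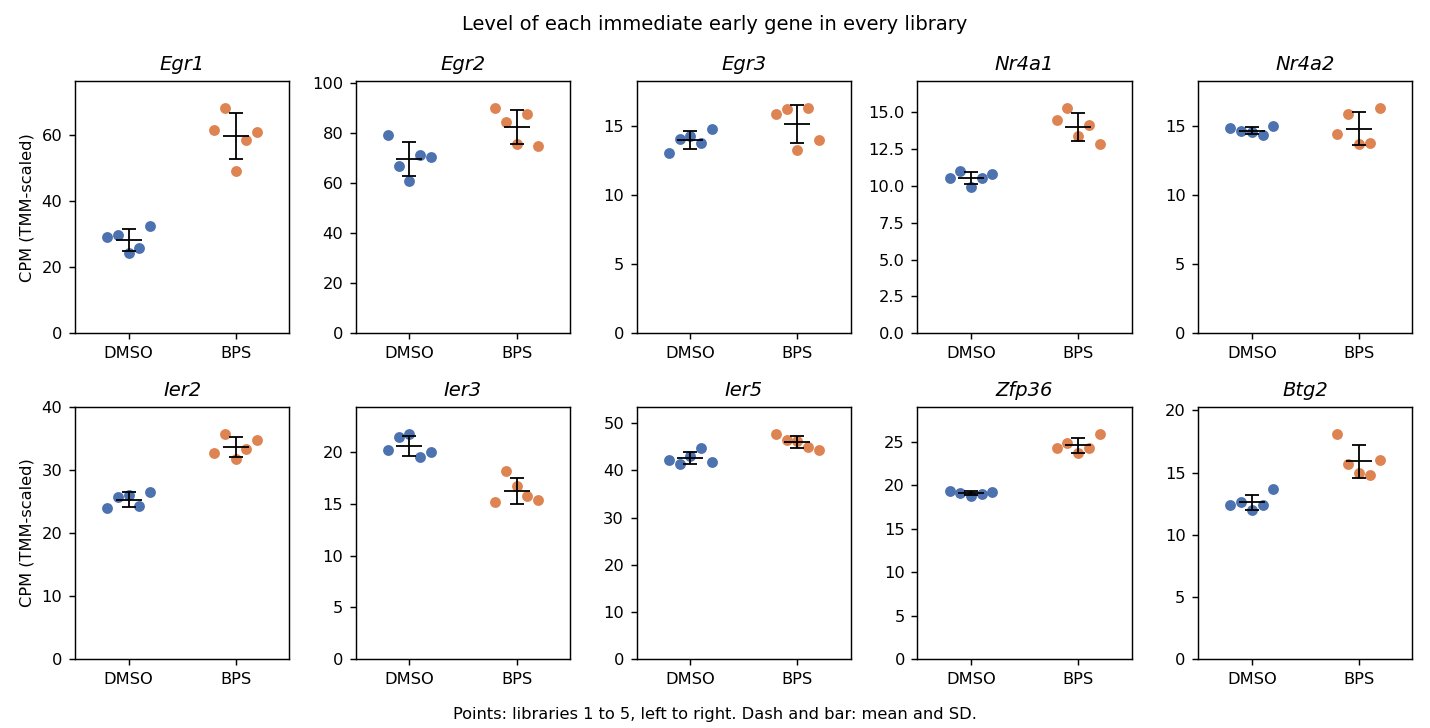
CPM (TMM-scaled, vertical axis from 0) of the 10 genes in each of 5 DMSO and 5 BPS libraries, with mean and SD. The BPS libraries lie above all DMSO libraries for Egr1, Nr4a1, Ier2, Zfp36 and Btg2 and below all of them for Ier3, while both groups share a range for Egr2, Egr3, Nr4a2 and Ier5.

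The 2 NR4A genes differed from each other. NR4A receptors are thought to work without a ligand, so that their amount sets their activity. Nr4a1 had 10.5, 10.97, 9.91, 10.5 and 10.8 CPM in DMSO and 14.5, 15.3, 13.4, 14.1 and 12.8 CPM in BPS. Every BPS library stood above every DMSO library, and the log2 difference was 0.41 (SE 0.05). Nr4a2 had 14.8, 14.7, 14.6, 14.3 and 15.02 CPM in DMSO and 14.4, 15.9, 13.8, 13.8 and 16.3 CPM in BPS. Its log2 difference was 0.01 (SE 0.05), and the groups overlapped. The SD was 0.259 CPM in DMSO and 1.204 CPM in BPS, a difference in spread that was not tested.

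The 3 IER genes, which share a name for their early induction more than a structure, went different ways. Ier2, a nuclear protein, had 23.9, 25.7, 26.1, 24.3 and 26.6 CPM in DMSO and 32.8, 35.8, 31.8, 33.4 and 34.8 CPM in BPS. The groups were 5.18 CPM apart at their nearest, with a log2 difference of 0.41 (SE 0.04). Ier3, a survival factor that prolongs ERK signalling, was the only one of the 10 genes with a lower BPS mean. It had 20.2, 21.4, 21.8, 19.5 and 20.01 CPM in DMSO and 15.2, 18.2, 16.7, 15.8 and 15.4 CPM in BPS. Every BPS library stood below every DMSO library, and the log2 difference was -0.34 (SE 0.05).

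Ier5, which recruits the phosphatase PP2A to heat shock factor HSF1, had 42.2, 41.4, 43.1, 44.7 and 41.7 CPM in DMSO and 47.8, 46.6, 46.2, 45.1 and 44.4 CPM in BPS. Only BPS replicate 5 fell below the highest DMSO library, and the log2 difference was 0.11 (SE 0.03). Its log2 difference was as small as that of Egr3, with a smaller error.

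Zfp36 and Btg2 encode proteins that bring the CCR4-NOT deadenylase to mRNAs. ZFP36, also called tristetraprolin, binds AU-rich elements, and BTG2 slows cell division. Zfp36 had 19.3, 19.1, 18.7, 19.0 and 19.2 CPM in DMSO and 24.2, 24.8, 23.7, 24.3 and 25.9 CPM in BPS. The coefficient of variation over the DMSO libraries was 1.18%, and every BPS library stood above them, with a log2 difference of 0.37 (SE 0.03). Btg2 had 12.4, 12.6, 11.98, 12.4 and 13.65 CPM in DMSO and 18.1, 15.7, 14.97, 14.8 and 15.99 CPM in BPS. The groups were 1.14 CPM apart at their nearest, BPS replicate 1 was the highest library, and the log2 difference was 0.34 (SE 0.06).

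Of all 14597 genes, 4.88% had an adjusted p under 0.05 (edgeR quasi-likelihood, Benjamini-Hochberg), 3.06% higher and 1.82% lower under BPS. Of the 10 genes, 6 were called higher (Egr1, Nr4a1, Ier2, Ier5, Zfp36 and Btg2), 1 was called lower (Ier3) and 3 were not called (Egr2, Egr3 and Nr4a2). The groups did not overlap in 6 of the 10 genes, against 6.91% of all genes. In 5 the BPS libraries lay wholly above the DMSO libraries, against 4.19% of all genes, and in 1 wholly below, against 2.72%. Since the genes were picked with this contrast known, nothing is read from these shares. The median log2 difference was 0.29 over the 10 genes and 0.0003 over all genes tested. The call for Ier5 held without DMSO replicate 4 and without BPS replicate 5 and was lost when any other single library was omitted. It was kept in 4 of 8 other settings, and lost with library size alone as the scaling, with no filter on low counts, with exact version matching of transcripts and with a block for the replicate number. Egr2 passed in 1 of the 10 fits without a library (without DMSO replicate 1) and in 2 of the 8 other settings.

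**Figure D2:**
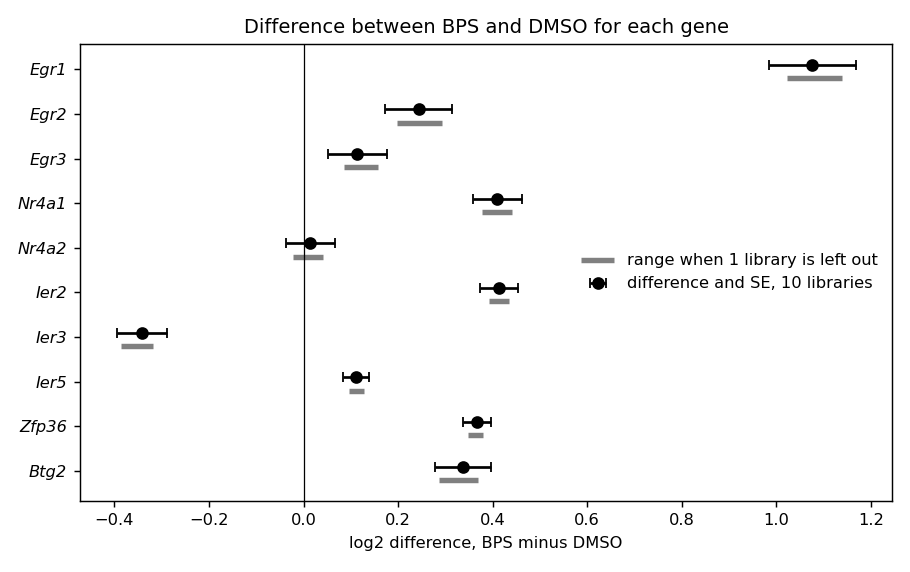
Log2 difference between BPS and DMSO for each gene (horizontal axis), with its standard error (black) and the range over 10 fits that each left out 1 library (grey). Egr1 stands apart at 1.08, Nr4a1, Ier2, Zfp36 and Btg2 lie between 0.34 and 0.41, and Ier3 lies at -0.34.

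Levels per transcript length give the order of abundance, as CPM per kilobase of the GENCODE M21 transcript paired with each gene's main transcript. Zfp36 was left out because that length exceeded the RefSeq span of the gene. All counts of a gene were divided by the length of its main transcript alone. That transcript held 58.8% of the counts of Nr4a1 and 85.0% of those of Egr3, so the places of these genes are less certain. In DMSO, Egr2 stood highest at 23.5 ± 2.27 CPM per kilobase (SD, n = 5), followed by Ier3 (18.2 ± 0.864), Ier2 (16.6 ± 0.759), Ier5 (13.0 ± 0.403) and Egr1 (9.35 ± 1.10). Btg2 (4.59 ± 0.229), Nr4a2 (4.29 ± 0.0758), Nr4a1 (4.26 ± 0.163) and Egr3 (3.55 ± 0.164) followed. The ranges of Ier3 and Ier2 overlapped, as did those of Nr4a2 and Nr4a1 and of Btg2 and Nr4a2, so these neighbours are not ordered beyond their spread. In BPS, Egr1 (19.7 ± 2.28 CPM per kilobase) stood above Ier3 (14.4 ± 1.09) and Ier5 (14.04 ± 0.3995), both of which it was below in DMSO.

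Several of the 10 genes have more than 1 transcript in the table, and the program divides shared reads among them by estimate. In Egr1, Ier2, Ier3, Ier5, Zfp36 and Btg2 a single transcript held all counts, and in Egr2 and Nr4a2 1 transcript held over 99% (99.5% and 99.4%). Egr3 had 3 transcripts. The main one held between 87.4% and 100% of the gene's estimated counts with DMSO and between 49.5% and 86.5% with BPS. The third had at most 0.0002 counts in any DMSO library and 13.3, 0.0879, 83.1, 43.1 and 78.3 counts in BPS replicates 1 to 5. In BPS replicate 3 the main transcript fell to 243.3 counts, while the other transcripts held 164.7 and 83.1. Nr4a1 had 6 transcripts, and its main one held between 56.0% and 74.1% with DMSO and between 38.6% and 74.9% with BPS. A long noncoding RNA, Gm32255, overlaps Egr2 and had 75 to 111 counts per library, and LOC105244150 overlaps Nr4a2 with 14 to 34. Whether counting used the strand was not given, so reads shared with them cannot be assigned with certainty.

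**Figure D3:**
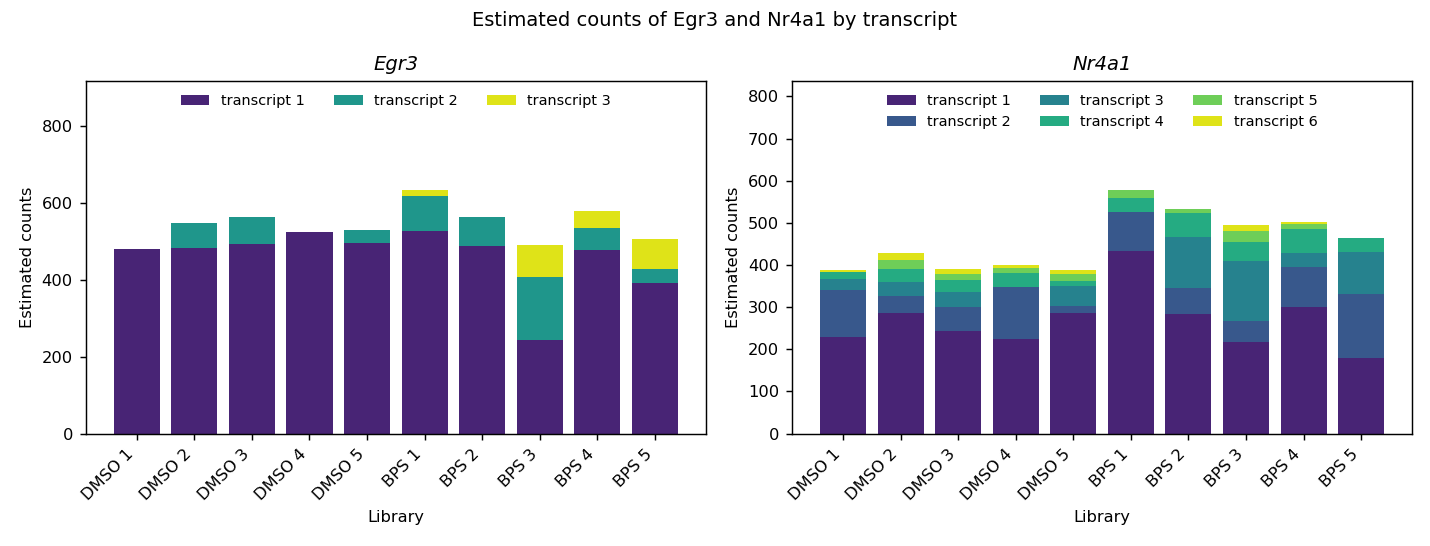
Estimated counts (vertical axis, from 0) of each transcript of Egr3 and Nr4a1, stacked, in the 10 libraries. The shares of the transcripts shift between libraries of a group, and the third Egr3 transcript reaches 83.1 counts in BPS libraries and at most 0.0002 in DMSO libraries.

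A feature that did not enter the choice of genes is the spread between libraries of the same group. The within-group SD of log2 CPM was 0.17 for Egr1 and 0.13 for Egr2, larger than in 95.6% and 96.4% of the 500 genes nearest in level. It was 0.037 for Zfp36, larger than in 4.2% of such genes, and 0.043 for Ier5, larger than in 33.0%. The other 6 genes stood between 40.8% and 75.8%. So Egr1 and Egr2 scattered widely and Zfp36 hardly at all, although all of them are early genes in the same libraries. DMSO replicate 3 was the lowest DMSO library for 5 of the 10 genes, and DMSO replicate 5 the highest for 5. BPS replicate 3 was the lowest BPS library for 5 genes, and BPS replicate 2 the highest for 4.

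Whether the other 9 genes followed Egr1 from library to library was tested after the group means had been subtracted, which removes the treatment difference. Pearson's r with Egr1 over the 10 libraries was positive for 8 of 9 genes, from 0.02 (0.0186) for Ier3 to 0.65 (0.654) for Nr4a1, and was -0.33 for Ier5. By exact two-sided permutation of libraries within groups, adjusted over the 9 relations, 0 had an adjusted p under 0.05 (lowest 0.2325), and 1 had an unadjusted p under 0.05. That one was Nr4a2, with r = 0.60, exact p = 0.0388 and Spearman's rho = 0.66 (exact permutation p = 0.0194, adjusted 0.1197). For Nr4a1, rho was 0.68 (exact permutation p = 0.0374, adjusted 0.1197). For Zfp36, rho was 0.66 (exact permutation p = 0.0439, adjusted 0.1197), and for the other 6 genes the unadjusted p of rho was above 0.05. The 2 libraries farthest from the median of Egr1 were BPS replicate 3 and DMSO replicate 3. Without them r was 0.46 for Nr4a1, 0.52 (0.515) for Nr4a2, 0.74 for Ier2 and 0.59 for Ier3. It was 0.35 for Egr3, 0.36 for Btg2, -0.37 for Ier5, 0.16 for Zfp36 and -0.09 for Egr2. The r thus fell most for Egr2 and Zfp36 and rose most for Ier3, on the 8 libraries left and with no measure of error. Without BPS replicate 5, Nr4a1 (r = 0.92) and Zfp36 (r = 0.88) passed the adjusted threshold. Over all 45 pairs of the 10 genes, 33 had a positive r, the median was 0.20 (0.196) and the highest was Nr4a2 with Zfp36 (0.87), given as a description since all pairs share the same libraries.

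**Figure D4:**
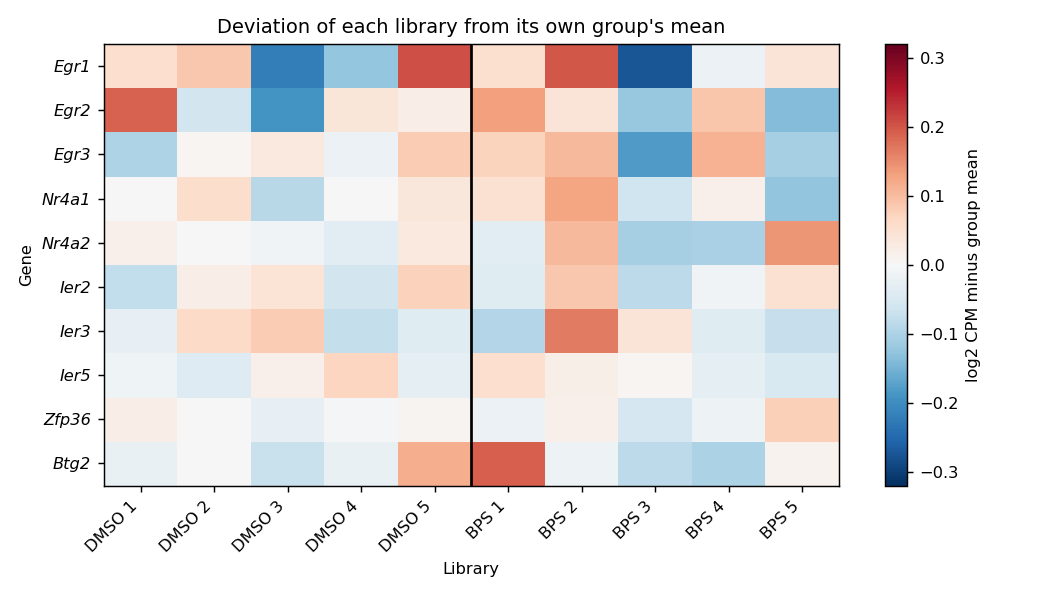
Deviation of log2 CPM from the mean of its own group (color) for the 10 genes (rows) in the 10 libraries (columns). Egr1 is lowest in replicate 3 of both groups, Egr2 runs from -0.191 in DMSO replicate 3 to 0.1894 in DMSO replicate 1, while no deviation of Zfp36 or Ier5 is larger than 0.0753.

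Over all 10 libraries, with the treatment difference left in, the 5 genes most like Egr1 among 12459 genes with a mean of at least 1 CPM were Thbs1 (r = 0.99), Fhl1 (0.98), Jph2 (0.98), Cd59a (0.98) and Actr3 (0.98). Thbs1 encodes thrombospondin 1, a matrix glycoprotein, Fhl1 a LIM domain protein of muscle, Jph2 a junctional membrane protein, Cd59a a complement regulator and Actr3 an actin nucleator. After subtraction of group means their r was 0.87, 0.72, 0.72, 0.72 and 0.74. The ranking that picked these 5 genes already held the deviations within groups, so these values are no separate check. Of the 10 genes here, Zfp36 ranked 7, Nr4a1 13, Ier2 16 and Btg2 98 in likeness to Egr1. Egr2 ranked 559, Ier5 752, Egr3 1481, Nr4a2 4185 and Ier3 12339. The treatment difference, known when the genes were picked, is part of these ranks, so they are no separate check either. All these values are descriptions over 10 libraries that share their depth and treatment.

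AU-rich elements, the sequences that ZFP36 binds, were counted in the 3′ untranslated regions of the paired GENCODE transcripts as the letters TATTTAT. For Zfp36 this was the transcript whose length exceeded the RefSeq span of the gene. Copies of TATTTAT were found in 4 of the 10 genes: 4 copies in Ier3, 3 in Zfp36 itself, and 1 each in Nr4a2 and Btg2. Shorter or variant AU-rich sequences, such as ATTTA alone, were not counted. The search therefore does not show that the other 6 genes lack AU-rich elements. Of 19278 genes, 25.6% held at least 1 copy. Among genes with a 3′ untranslated region within 20% of the same length, 16.4% held at least 1 copy for Ier3, 19.5% for Zfp36, 30.5% for Nr4a2 and 41.0% for Btg2. For the 6 genes without a copy this share ran from 14.6% (Nr4a1) to 46.9% (Egr3). The longer sequence TTATTTATT was found in 1 of the 10 genes, Zfp36, and in 6.75% of all genes, and Ier3 had 0 copies of it. The 30 bases with the most copies, in capitals, are shown for Ier3 and Zfp36, the genes with more than 1 copy. Whether these copies bear on the levels of the genes was not tested.

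Ier3: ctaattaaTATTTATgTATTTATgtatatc
Zfp36: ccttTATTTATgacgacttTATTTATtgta

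Other genes of the pathway were taken from 6 lists. Of 37 other immediate early genes 36 were tested. By edgeR's quasi-likelihood test adjusted over all genes 8 rose, 1 fell and 27 did not pass, with a median log2 difference of 0.09. The share called was 25%, against 4.88% of all genes. Rhob, a small GTPase, rose from 166.2 ± 1.80 to 181.2 ± 2.72 CPM (SD over 5 libraries here and below), which is a log2 difference of 0.12 (SE 0.02, adjusted p = 0.00104 by edgeR). Klf4, a zinc finger factor, rose by 0.20 (SE 0.03, adjusted p = 0.00229 by edgeR) from 22.7 ± 0.222 to 26.1 ± 0.817 CPM. Plk2, a polo-like kinase (0.15, SE 0.03), and Klf6 (0.12, SE 0.02) also rose, with adjusted p of 0.0124 and 0.0136 by edgeR. Nfkbiz, a nuclear regulator of NF-kB, fell by 0.13 (SE 0.03, adjusted p = 0.0214 by edgeR), and lost its call without DMSO replicate 4 or 5 or BPS replicate 2 or 4 (adjusted p 0.0516, 0.0541, 0.0516 and 0.0572). The 4 further genes that rose were Klf2, Gadd45g, Mcl1 and Errfi1, and none of these calls held throughout when 1 library was omitted: Klf2 was called in 3 of 10 such fits (adjusted p up to 0.0775 by edgeR), Gadd45g in 6 (0.0587), Mcl1 in 1 (0.104) and Errfi1 in 3 (0.102). Gadd45g was lost without DMSO replicate 5 or BPS replicate 2, 3 or 5. Klf2 held without DMSO replicates 2 and 3 and BPS replicate 1, Mcl1 without DMSO replicate 3, and Errfi1 without DMSO replicate 5 and BPS replicates 3 and 5. The differences of all 9 changed genes were under 0.21 on the log2 scale in either direction.

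The closest relatives of the 10 genes showed no change that passed the test. Egr4 had 0 or 1 count per library, too few for a difference to be seen at this depth. Nr4a3 had 0.462, 0.205, 0.583, 0.184 and 0.614 CPM in DMSO and 0.902, 0.833, 0.812, 0.535 and 0.581 CPM in BPS, on 7 to 36 counts per library, with a log2 difference of 0.85 (SE 0.32, adjusted p = 0.165 by edgeR). Ier5l differed by -0.03 (SE 0.05), Btg1 by 0.03 (SE 0.02), Zfp36l1 by 0.09 (SE 0.03) and Zfp36l2 by 0.02 (SE 0.02), with adjusted p of 0.80, 0.627, 0.107 and 0.533 by edgeR. Zfp36l1 and Zfp36l2, at 215.2 ± 8.09 and 212.6 ± 2.49 CPM with DMSO, had more counts than Zfp36.

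Of 26 kinases and transcription factors upstream of early genes, all were tested, and 2 rose, 0 fell and 24 did not pass. The share called was 7.69%, against 4.88% of all genes, and nothing is read from it about the list. Srf rose from 62.7 ± 1.26 to 69.1 ± 2.92 CPM, a log2 difference of 0.14 (SE 0.03, adjusted p = 0.0191 by edgeR). Rps6ka2, a ribosomal S6 kinase activated by ERK, rose by 0.24 (SE 0.04, adjusted p = 0.00834 by edgeR). Neither passed when transcripts were matched by exact version: the log2 difference of Srf was 0.065 (adjusted p = 0.684 by edgeR) and that of Rps6ka2 0.288 (adjusted p = 0.589). Levels of the ERK kinase Mapk3 (0.01, SE 0.02) and of Creb1 (57.6 ± 1.16 and 57.7 ± 1.85 CPM) did not pass. The median log2 difference of the list was -0.0007.

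Of 13 corepressors and textbook targets of EGR factors, all tested, 3 rose, 0 fell and 10 did not pass. The share called was 23.1%, against 4.88% of all genes. Thbs1 rose from 3069 ± 130.4 to 3743 ± 125.3 CPM, a log2 difference of 0.29 (SE 0.03, adjusted p = 0.000304 by edgeR). Pdgfa, a growth factor for mesenchymal cells, rose by 0.16 (SE 0.03, adjusted p = 0.0170 by edgeR). The EGR corepressors Nab1 (-0.08, SE 0.03) and Nab2 (0.005, SE 0.027) did not pass, with adjusted p of 0.206 and 0.954 by edgeR. The median of the list was 0.009.

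Of 14 tested CCR4-NOT subunits and BTG or TOB relatives, 0 rose and 0 fell by edgeR, and the median log2 difference was -0.01. With 4.88% of all genes called, 0 of 14 says little about this list. Cnot1, the scaffold, had the widest difference, -0.54 (SE 0.15, adjusted p = 0.0634 by edgeR), on 55.1 ± 15.5 CPM with DMSO and 37.8 ± 1.99 CPM with BPS, groups that did not overlap. The retinoid receptors Rxra and Rxrb, with which NR4A receptors can pair, did not pass (0.03, SE 0.02, and -0.07, SE 0.03). Of 11 textbook ZFP36 targets other than Ier3, 5 had enough counts to be tested, and 3 rose, 0 fell and 2 did not pass. The share called was 60% of only 5 genes, against 4.88% of all genes. Ptgs2, the prostaglandin synthase COX-2, rose by 0.35 (SE 0.07, adjusted p = 0.0203 by edgeR) from 51.1 ± 5.56 to 65.1 ± 5.20 CPM. Lif, a cytokine, rose by 0.26 (SE 0.05) and Ccnd1, cyclin D1, by 0.21 (0.205, SE 0.04), with adjusted p of 0.0203 and 0.0214 by edgeR. With exact version matching the log2 difference of Lif was 0.17 and did not pass (adjusted p = 0.312 by edgeR). Without BPS replicate 2 none of these 3 passed (adjusted p 0.0524, 0.0513 and 0.0556). Without DMSO replicate 4 the adjusted p was 0.0529 for Ptgs2 and 0.0507 for Ccnd1, and without BPS replicate 4 it was 0.0524 for Lif and 0.0521 for Ccnd1. Ccnd1 also missed the threshold without DMSO replicate 2 (0.0532) or DMSO replicate 3 (0.0520). Over the 6 lists together 17 of 96 genes changed, or 17.7% against 4.88% of all genes, 16 higher and 1 lower. The lists were chosen with earlier results of these data known, so nothing is read from this share or from those of the single lists. This count was 9 without BPS replicate 2, 11 without DMSO replicate 4 and 11 without BPS replicate 4.

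**Figure D5:**
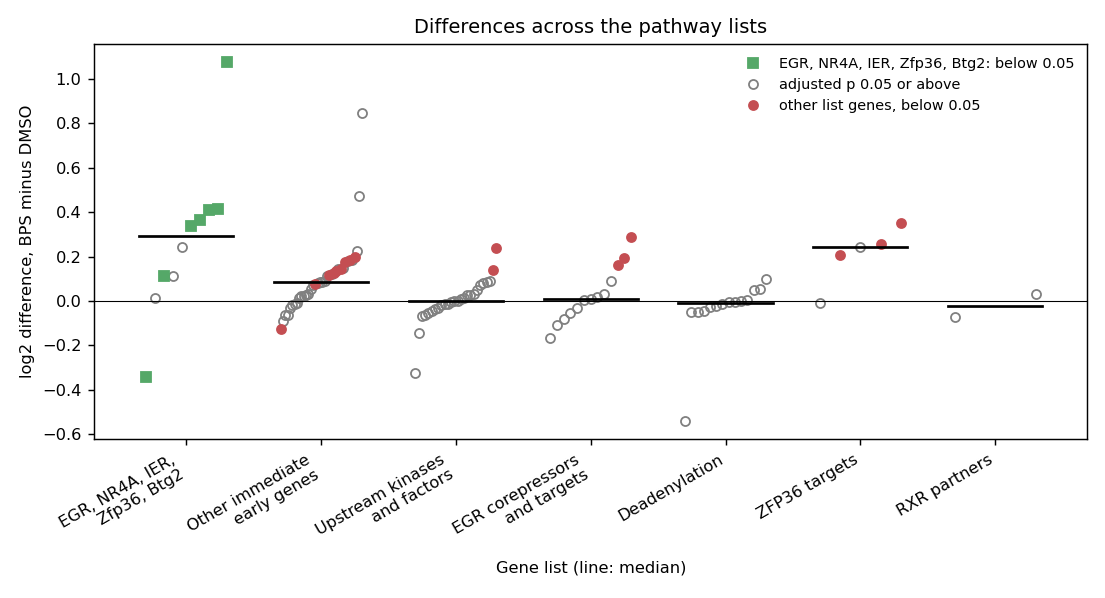
Log2 difference (BPS minus DMSO, vertical axis) of the 10 genes (left) and of the tested genes of the 6 lists, ordered within each list, with the list's median as a line. Filled symbols had an adjusted p under 0.05 by edgeR. Most points of the 6 lists lie near 0. Of 36 other immediate early genes 8 rose and 1 fell, against 3.06% higher and 1.82% lower of all genes. The lists were chosen with earlier results of these data known, so nothing is read from these counts.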

How the data were processed

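Estimated counts per RefSeq transcript were deposited, 1 column per library, made by the authors with kallisto 0.42.4, per the submitters' processing notes. Its index, its strand option and the genome build are not given in the sources used here. Transcripts were assigned to genes by accession without version through the RefSeq table of GRCm38.p6: 86722 of 107384 transcripts, holding 93.1% of counts. Counts were summed per gene and rounded. Genes were kept by filterByExpr and scaled by TMM (0.9854 to 1.008), and the 2 groups were compared in edgeR (quasi-likelihood, no covariates, Benjamini-Hochberg adjustment). SE is the unshrunken log2 difference over the square root of F. Correlations used log2 CPM with a prior count of 2. Replicates were not copies: their chi-square over degrees of freedom was 4.13 to 8.77 in 20 pairs. The code was tested on simulated data.

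The members, lists and motifs were chosen with earlier results of these data known. Named genes (some not reported here) were the 10 members, their relatives, up to 5 changed genes per list, and the 5 genes most like Egr1. Software was edgeR 4.0.16, DESeq2 1.42.0 and limma 3.58.1 in R 4.3.3, and scipy 1.17.1 in Python 3.11.15. Alternatives were other scalings and filters, DESeq2's Wald test, voom in limma, exact version matching, a replicate block and leaving out each library. The search of 3′ untranslated regions, and the covariation without single libraries, were added after seeing the data.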

Additional observations from a re-analysis of the deposited data

Results flagged for a closer look

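Of 64 groups of 5 values looked at, over 32 genes, 3 held a value set off from the rest (Dixon's test, 95%), and chance flags about 1 in 20 groups (3.2 here). None of the 10 genes was among them. Lif was low in BPS replicate 1, at 11.1 CPM against 11.8 to 12.1 CPM. Cd59a was low in BPS replicate 3, at 11.2 CPM against 12.2 to 12.5 CPM. Egr4 had 0.0263 CPM in DMSO replicate 4, which is 1 count, and 0 in the other DMSO libraries.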

How the results depend on the processing

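No log2 difference of the 10 genes moved by as much as its within-group SD under the alternatives in which it could be tested. The fits that left out 1 library could hardly exceed that limit. Omitting 1 of 5 libraries shifts the group mean by only a fraction of that library's deviation. For those fits the limit is therefore no test of stability. The ranges over the 10 fits that left out 1 library were 1.02 to 1.14 for Egr1, 0.378 to 0.441 for Nr4a1, 0.391 to 0.434 for Ier2, -0.385 to -0.318 for Ier3, 0.347 to 0.380 for Zfp36 and 0.286 to 0.368 for Btg2, and each of these 6 genes was called in all 10 and under the 8 other settings. Nr4a2 changed sign near 0, to -0.0007 with library size alone and to as low as -0.0222 when a library was left out. Egr3 could not be tested with exact version matching. Of the 10 genes 6 to 8 were called under the alternatives.

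The count of 712 changed genes (62.8% higher) became 371 with the replicate block and 328 with exact version matching, and ran from 449 to 774 when 1 library was left out. The lower values came without DMSO replicate 2 (449) and without BPS replicates 2 (463), 3 (465) or 4 (462). With library size alone 725 genes changed and 46.1% of them were higher. The 17 changed list genes became 11 with the replicate block and 6 with exact version matching, where 78 list genes could be tested, and ran from 9 to 17 without 1 library. In the exact version fit the adjusted p was 0.684 for Srf, 0.589 for Rps6ka2 and 0.312 for Lif, and Rhob, Pdgfa, Ccnd1 and Errfi1 could not be tested. With the block Egr2 was called and Ier5 was not, and the block took the calls of Nfkbiz (log2 difference -0.125, adjusted p 0.0912 by edgeR), Pdgfa (0.162, 0.0758), Lif (0.258, 0.0692), Klf2 (0.185, 0.056), Errfi1 (0.134, 0.0531) and Mcl1 (0.076, 0.109). The cause of these moves was not tested. Deviations of same-numbered libraries, over all genes tested, correlated at 0.10, 0.0038, -0.067, 0.072 and -0.078. This shows no strong shared deviation, but it cannot settle whether the replicate numbers pair the libraries, which the labels do not say. The number of genes that followed Egr1 within groups was 0 under the other scalings, and 0 to 2 without 1 library, an alternative chosen after seeing the data.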
